A study of Homo sapiens with 9 samples.

Results

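The comparison described here set RNA that came down with DCC, the receptor for the guidance cue Netrin-1, against the RNA of the whole lysate. Its 6 members were chosen by their titles from the 9 libraries of the series, namely the 3 DCC-IP and the 3 Input libraries. The 3 Nrp1-IP libraries, made with an antibody against the Sema3A receptor Nrp1, entered only where they are named. All libraries came from SH-SY5Y, an established human neuroblastoma line grown in high-glucose DMEM with fetal bovine serum. No cue, drug or genetic change is described for the growing cells of any group. By the paper's methods, the cells were lysed in a buffer that held cycloheximide, a blocker of translation elongation. For DCC-IP, lysate was held with magnetic beads carrying a mouse antibody against DCC, and the beads were washed before the RNA was isolated. The cDNA was amplified by a PCR-based method made for single cells. A pulldown with a control antibody was not analysed here, so RNA that sticks to the beads or to any antibody is not subtracted, and a value above Input is a value above lysate only. The labels do not say whether the 3 libraries of a group came from separate cultures, so the p-values measure the spread between these libraries, which may be technical.

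DCC is a single-pass membrane receptor that steers growing axons. Axons make proteins locally from stored mRNAs, and guidance cues can switch this synthesis on or off within minutes. Ribosomes and mRNAs held near a receptor are one proposed way to tie a cue to the synthesis of particular proteins. The libraries ask which mRNAs are found with DCC, and the reads are shares of a library: when 1 mRNA takes a large share, the shares of all others fall whether or not their amounts do.

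Each library held 8838296 to 11055895 reads on 42785 gene symbols, 29.2% to 31.0% of all reads. A DCC-IP library held between 6652 and 11259 genes with at least 1 count, an Input library between 8169 and 11937, and 4646 genes were seen in all 6. Spearman correlations between libraries of a group ran from 0.599 to 0.661 over genes, so single libraries differed widely in their less abundant genes. Some genes were far higher in the libraries numbered 3 of both groups. SPTBN1, a spectrin that lines the plasma membrane, had 2944, 1626 and 39035 counts in DCC-IP and 550, 307 and 4114 in Input. ACTB, cytoplasmic actin, had 7725, 3520 and 28167 counts in DCC-IP and 23675, 25286 and 285358 in Input, and fell only with the replicate block (log2 fold change -3.03, adjusted p = 0.00254, against 0.103 without it). Libraries with the same number deviated together from their group means, most clearly those numbered 3 and only weakly those numbered 1. The pairing is thus an assumption. For named genes and gene lists, values from the fit that pairs them (the replicate block) are given where they change a call or a count of calls.

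MAP1B, which encodes a large microtubule-associated protein of growing axons, dominated the DCC-IP libraries. It had 5462610, 5760797 and 4184163 counts in DCC-IP and 232433, 226607 and 164906 in Input. These were 49.6%, 52.1% and 40.3% of the gene counts in DCC-IP and 2.18%, 2.25% and 1.87% in Input, so every DCC-IP library was far above every Input library. The mean share was 47.4% ± 6.20 (SD, n = 3) against 2.10% ± 0.206 (SD, n = 3), with an exact two-sided permutation p of 0.1, the smallest that 3 against 3 libraries can give. The Nrp1-IP libraries, made with the same kind of beads, held 2.44%, 2.29% and 1.58%. On the log2 scale the fold change of MAP1B in DCC-IP over Input was 4.22 (SE 0.27), with an adjusted p of 0.000658 over all genes tested in edgeR. Within replicate numbers 1, 2 and 3 the log2 ratio was 4.23, 4.29 and 4.11. With MAP1B itself left out of the normalization the log2 fold change was 4.55 (adjusted p = 0.00746). The call was lost without DCC-IP replicate 1, where the log2 fold change was 4.07 and the adjusted p 0.051.

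**Figure D1:**
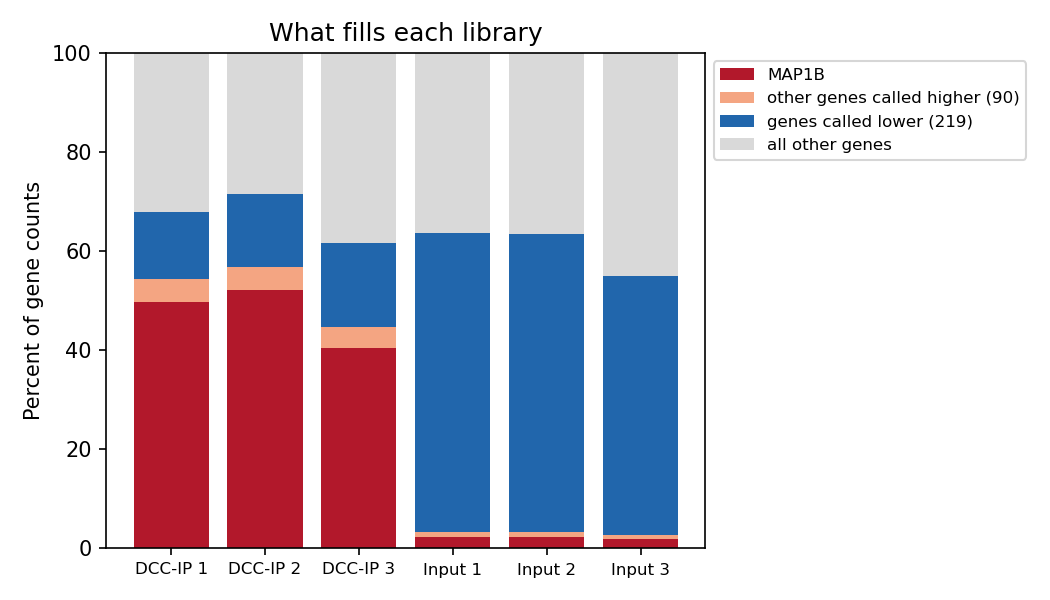
Percent of the gene counts of each library held by MAP1B, by the 90 other genes called higher in DCC-IP, by the 219 genes called lower and by all other genes. MAP1B fills 40.3% to 52.1% of a DCC-IP library and about 2% of an Input library, and the genes called lower fill 52.2% to 60.4% of an Input library.

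Apart from MAP1B, genes were called in both directions, and many of the most counted mRNAs fell. Of 6223 genes tested, 91 were higher in DCC-IP (1.46%) and 219 lower (3.52%) at an adjusted p under 0.05. With the replicate block these counts were 238 (3.82%) and 477 (7.67%), and 89 of the 91 and 217 of the 219 genes were called there too. DESeq2 called 508 of the 6223 genes higher and 524 lower. Counts over a list with the block or in DESeq2 are to be read against these larger totals. With MAP1B left out of the normalization 25 were higher (0.402%) and 41 lower (0.659%), every one of them among the 91 and 219. Of the genes named below, beyond the leading ones, the calls of AGO2, SON, USP4, SET, ANP32E, CBX5, PPP1CB, CDC42, EIF2S3, COX7B, BAG4, SRPRB, SEC22B, STT3A, NUTF2, SKA2, BIRC5, SLC35F1, ZBED5-AS1 and C17orf76-AS1 were kept with MAP1B left out, and the other calls were not. For comparison, in 17.1% of the tested genes all 3 DCC-IP values lay above all 3 Input values and in 16.6% all 3 lay below. The counts moved widely when 1 library was left out. Without DCC-IP replicate 1 edgeR called no gene (1554 had an unadjusted p under 0.05), and without DCC-IP replicate 2 it called 1. Without DCC-IP replicate 3 it called 139 higher and 67 lower, among them 74 of the 91 and 44 of the 219. The counts were 1 higher and 30 lower without Input replicate 1, 14 and 82 without Input replicate 2, and 36 and 214 without Input replicate 3.

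How many genes count as higher depends on the scaling. Genes called higher were 29.4% of the calls under TMM, 20.7% under RLE size factors, 45.8% with library size alone, and 89.6% with library sizes counted outside MAP1B and no further factor (604 higher and 70 lower, a setting added after seeing the data). The median log2 fold change of all tested genes was 0.16 under TMM and 1.35 in that last setting, a shift of 1.19. Under it 309 of the 310 genes called under TMM kept their sign. The exception was NFIB. Medians of gene groups are therefore given below beside or relative to the median of all tested genes. Another scaling shifts nearly all genes by a similar amount. The distance of a group from that median therefore hardly moves between scalings, and its narrow range is no independent check. A sparse gene can pass the count filter through the group where it is high. Signs and medians of lists with many sparse genes may lean on this, which was not tested.

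**Figure D2:**
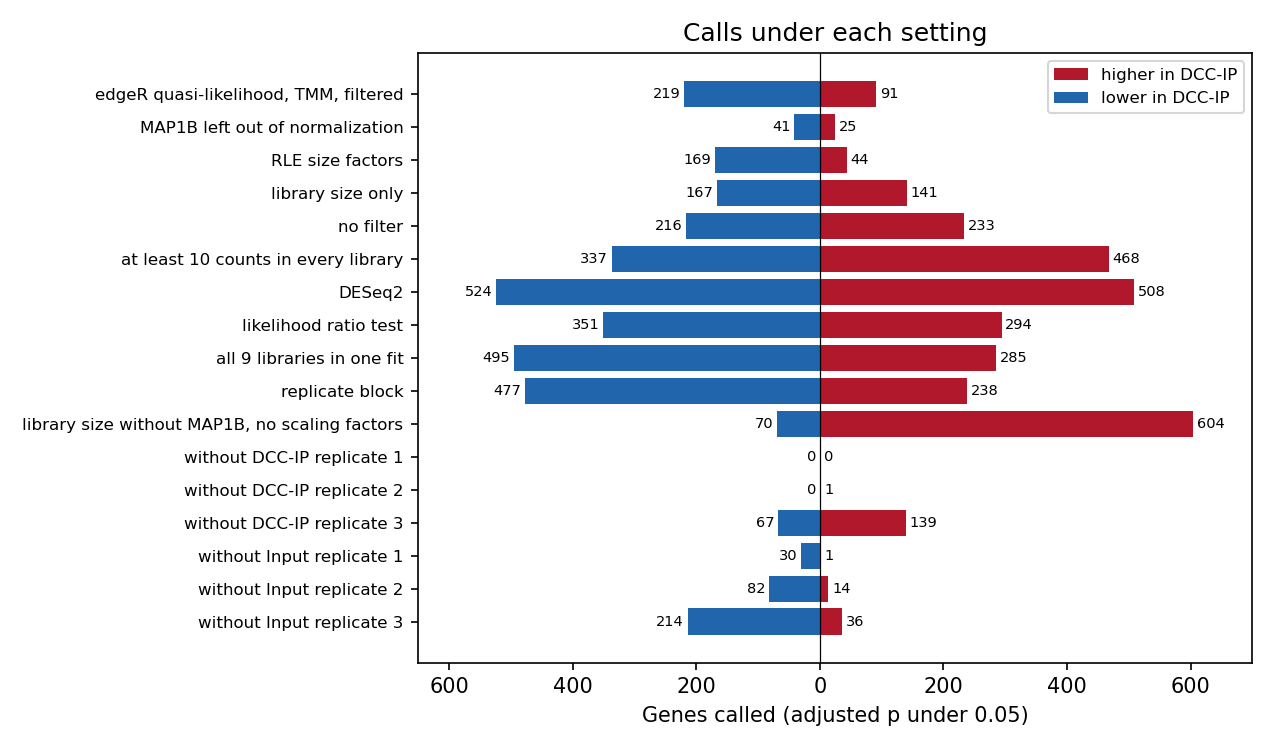
Number of genes called higher (right, red) and lower (left, blue) in DCC-IP than in Input under each setting, at an adjusted p under 0.05. The counts run from 0 higher and 0 lower without DCC-IP replicate 1 to 604 higher with library sizes outside MAP1B and 524 lower in DESeq2.

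After MAP1B, the 9 genes with the smallest p among those that rose were VPS13A, PCNT, ISL1, ALMS1, CNOT1, ZFX, MCM7, KNTC1 and TCF4. VPS13A, a lipid transfer protein that bridges organelle membranes, had 1054, 579 and 1445 counts in DCC-IP and 15, 20 and 12 in Input. Its log2 fold change was 5.60 (SE 0.72, adjusted p = 0.00662). PCNT encodes pericentrin, a scaffold of the centrosome. It had 2382, 930 and 1737 counts against 39, 28 and 46, with a log2 fold change of 5.07 (SE 0.67, adjusted p = 0.00716). ALMS1, another large centrosome and cilium protein, had 862, 370 and 990 counts against 11, 4 and 10 (log2 fold change 6.02, SE 0.86, adjusted p = 0.00884). For these centrosomal genes the lowest DCC-IP library held many times the counts of the highest Input library.

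CNOT1, the scaffold of the CCR4-NOT complex that shortens poly(A) tails, had 3397, 2687 and 1825 counts in DCC-IP and 139, 189 and 127 in Input (log2 fold change 3.73, SE 0.53). ISL1 is a LIM-homeodomain transcription factor of motor, sensory and sympathetic neurons. It was also well counted in the lysate, with 35114, 27786 and 17501 counts in DCC-IP and 2223, 3121 and 1833 in Input (log2 fold change 3.10, SE 0.42, adjusted p = 0.008). ZFX, an X-linked zinc finger transcription factor, had 31408, 67071 and 57443 counts against 7936, 7237 and 4990 (log2 fold change 2.51, SE 0.36). MCM7, a subunit of the replicative helicase, and KNTC1, a kinetochore protein of the mitotic checkpoint, had log2 fold changes of 2.86 (SE 0.41) and 2.66 (SE 0.38). TCF4, a basic helix-loop-helix factor of neurons, had 14017, 15889 and 12260 counts against 2065, 2250 and 2305 (log2 fold change 2.26, SE 0.33). In all 10 genes the groups did not overlap, as in each of the 91 genes called higher and in this direction in 17.1% of all tested genes. All 10 kept an adjusted p under 0.05 with MAP1B left out of the normalization.

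The leading genes by p among those that fell include mRNAs of actin, microtubule and signalling regulators. ARPC4, a subunit of the Arp2/3 complex that branches actin filaments, had 8911, 7720 and 12369 counts in DCC-IP and 67880, 89568 and 80881 in Input (log2 fold change -3.47, SE 0.29, adjusted p = 0.00373). PAFAH1B2, a catalytic partner of the dynein regulator LIS1, had 27929, 42471 and 40431 counts against 272222, 244413 and 165503 (log2 fold change -3.05, SE 0.29, adjusted p = 0.00513). YWHAE, the epsilon 14-3-3 adaptor protein, had 36609, 42979 and 72121 counts against 250760, 245395 and 238364 (log2 fold change -2.72, SE 0.28). DPYSL2, which encodes the collapsin response mediator CRMP2, had 31748, 26004 and 41309 counts against 178633, 216416 and 119609 (log2 fold change -2.80, SE 0.31). Each Input library exceeded each DCC-IP library severalfold in these genes.

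CNN3, the actin-binding calponin 3, had 583, 695 and 797 counts in DCC-IP and 5298, 6481 and 9217 in Input (log2 fold change -3.77, SE 0.40). EIF5A, a translation elongation factor, had 1095, 738 and 1083 counts against 9817, 9010 and 6774 (log2 fold change -3.55, SE 0.39). Its near-identical copy EIF5AL1 was also called lower at -3.49, and reads of the pair may have been split between them. SLC35F6, a solute carrier, GLTP, a glycolipid transfer protein, and DDAH1, which breaks down an inhibitor of nitric oxide synthesis, had log2 fold changes of -3.18, -3.17 and -3.25. All 9 genes described here kept an adjusted p under 0.05 with MAP1B left out of the normalization.

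**Figure D3:**
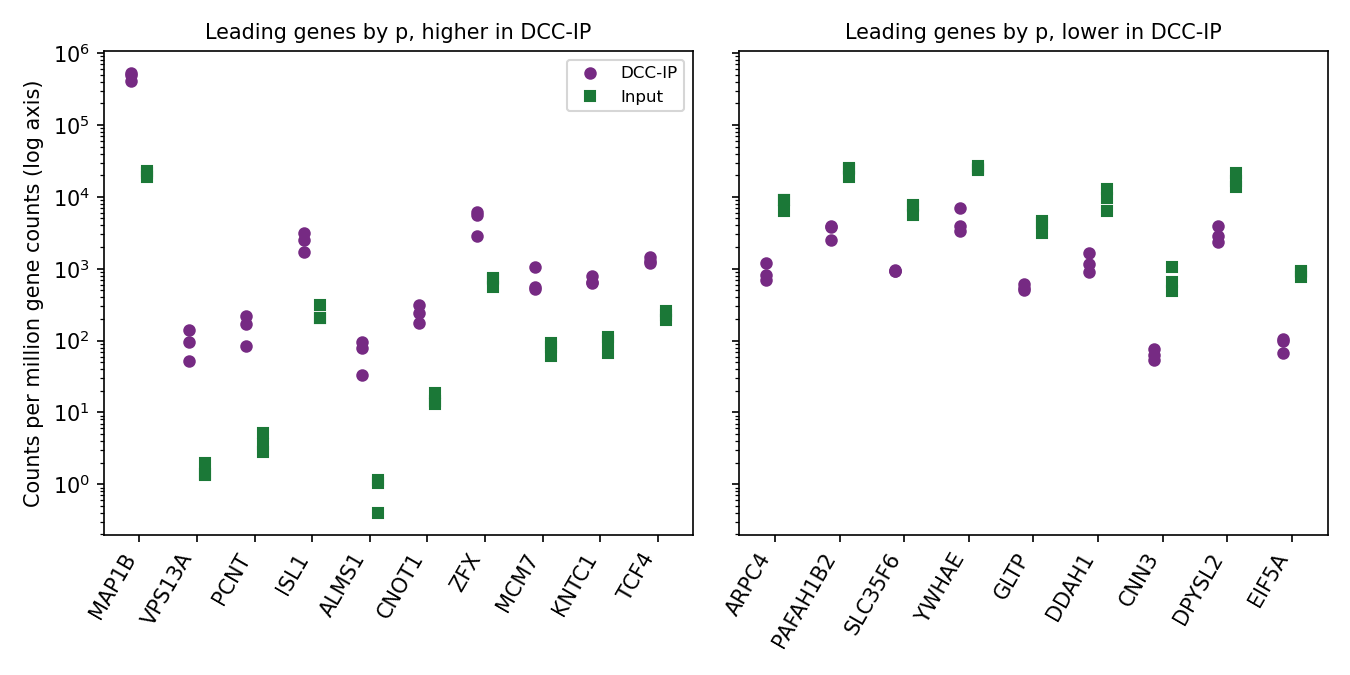
Gene counts scaled to CPM (log axis) in each DCC-IP library (circles) and each Input library (squares) for leading genes by p, 10 that rose (left) and 9 that fell (right). The circles lie above the squares for every gene on the left, from ALMS1 with 4 to 11 Input counts to MAP1B, and below them for every gene on the right.

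The fall of the most counted mRNAs was broad. CPM here is the count scaled to library size. A level from the Nrp1-IP libraries, which take no part in the comparison, was used to sort the genes (a choice made after seeing the data). This level is not neutral, since Nrp1-IP resembled Input more than DCC-IP. The 10 most counted genes outside MAP1B held 18.3% to 19.7% of the counts outside MAP1B in Nrp1-IP. The mean of this share was 19.8% in Input and 13.5% in DCC-IP. Genes high in Input and Nrp1-IP but low in DCC-IP thus land in the upper classes. Of 189 tested genes with at least 1000 CPM in Nrp1-IP, 102 fell (54.0%) and 4 rose (2.12%), and their median log2 fold change was -1.71. Of 555 genes between 100 and 1000 CPM, 71 fell (12.8%) and 28 rose (5.05%), with a median of -1.04. Between 10 and 100 CPM and between 1 and 10 CPM the medians were 0.40 and 0.44, and below 1 CPM -0.14. In these lower classes 2.54%, 0.430% and 0.147% of the genes rose, in the same order. The smaller share of calls at low levels goes with their lower counts. With library sizes outside MAP1B the median of the highest class was -0.57 and that of the next 0.14, against 1.35 for all genes. A shift shared by all genes leaves both classes below all genes, although the median of the second was then above 0. Under TMM, with genes sorted by Input itself, 105 of 186 genes with at least 1000 CPM in Input fell (56.5%), with a median of -1.83. Both sorts were close there, so the Nrp1-IP classes are no independent check on the fall of the most counted genes. Below 1 CPM the sorts differed, with a median of 1.89 by Input level.

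**Figure D4:**
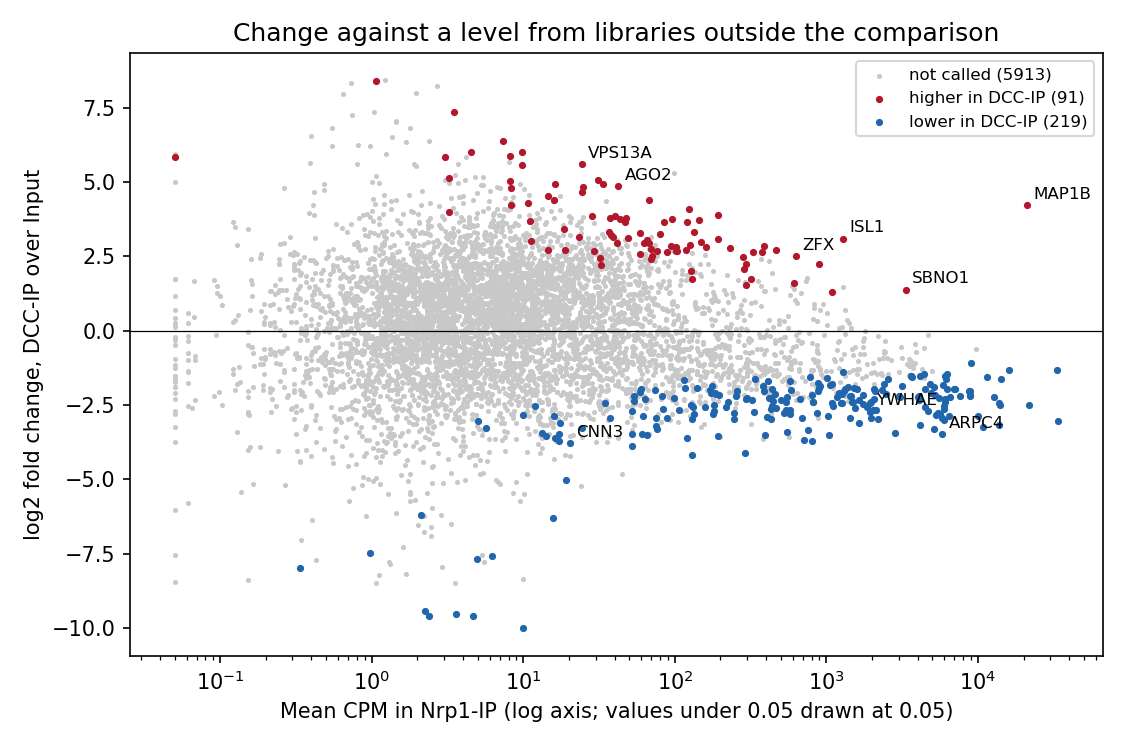
Log2 fold change of DCC-IP over Input for each of the 6223 tested genes against its mean CPM in Nrp1-IP (log axis). Nrp1-IP resembles Input more than DCC-IP in its makeup, so this level is not neutral between the groups. Genes called lower (blue, 219) crowd the right side, where 102 of 189 genes with at least 1000 CPM fell. Of the genes called higher (red, 91), 32 were among 744 tested genes with at least 100 CPM (4.30%). The other 59 were among 5479 genes below that level (1.08%). MAP1B, ISL1 and SBNO1 are labelled genes that rose at 1000 CPM or more.

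The 219 genes called lower made up 52.2% to 60.4% of the gene counts of an Input library and 13.6% to 16.9% of a DCC-IP library. Outside MAP1B these shares were 53.2% to 61.8% and 27.0% to 30.9%, so the difference was also present among the counts outside MAP1B. The 20 genes other than MAP1B with the most Input counts held 27.8% to 30.4% of the Input counts outside MAP1B and 15.2% to 16.0% of those in DCC-IP. These genes were picked for their calls or for their Input counts, so the shares are a description. They include SET, a chromatin and phosphatase regulator, with 45547, 46394 and 43871 counts in DCC-IP and 249550, 249013 and 137512 in Input (log2 fold change -2.64, SE 0.30). Also among them, ANP32E, a chaperone of the histone variant H2A.Z, had a log2 fold change of -2.26 (SE 0.27), CBX5, the heterochromatin protein HP1 alpha, of -2.88 (SE 0.36), and PPP1CB, a catalytic subunit of protein phosphatase 1, of -2.45 (SE 0.29).

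A few of the most counted genes moved little or the other way. SBNO1, a helicase-like nuclear protein, took the second most counts in DCC-IP after MAP1B, with 117768, 148284 and 104763 counts against 42886, 41640 and 22039 in Input. Its log2 fold change was 1.39 (SE 0.33) and its adjusted p of 0.0496 rose to 0.0766 with MAP1B left out of the normalization. DCUN1D4, a neddylation factor named after its values were seen, had 40277, 36244 and 50593 counts against 13343, 10703 and 14224 (log2 fold change 1.30, SE 0.28, adjusted p = 0.0383). With MAP1B and ISL1 these were the 4 genes of the highest class that rose. The neural transcription factors SOX4 and SOX11 had log2 fold changes of -0.73 (SE 0.41) and -0.35 (SE 0.24), which did not pass, and that of SOX4 passed with the replicate block (adjusted p = 0.0268). The ubiquitin ligase gene MARCH6 had -0.59 (SE 0.34). All 3 became positive with library sizes outside MAP1B. NFIB, a nuclear factor I gene, USP22, a histone deubiquitinase, and CTTN, the actin regulator cortactin, fell by 1.10, 1.32 and 1.44 on the log2 scale, but none of them was called with MAP1B left out of the normalization (adjusted p = 0.206, 0.149 and 0.219), and NFIB came to 0.085 with library sizes outside MAP1B.

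Most of the tested microtubule-associated protein genes had a positive value, and few passed the test. Of 30 listed genes 14 were tested, 12 of them with a positive and 2 with a negative log2 fold change. In 6 of the 14 all DCC-IP values lay above all Input values, against 17.1% of all genes. In edgeR MAP1B rose and DCX fell, and DESeq2 called 4 higher and 1 lower. DCX encodes doublecortin, which stabilises microtubules in migrating neurons. It had 11811, 19722 and 14264 counts in DCC-IP and 35153, 34051 and 23981 in Input (log2 fold change -1.45, SE 0.32, adjusted p = 0.0383, and 0.131 with MAP1B left out of the normalization). The median log2 fold change of the 14 was 1.95 against 0.16 for all genes tested, the highest of any list with at least 10 tested genes, and 4 had an unadjusted p under 0.05 and a higher value. With the replicate block SPTBN1, the membrane spectrin described above that the list also holds, passed as well, with a log2 fold change of 2.27. So did CAMSAP1, which caps microtubule minus ends, at 4.02. The other gene with a negative value was MAP2, the dendritic microtubule-associated protein, at 0, 0 and 12 counts in DCC-IP and 8, 14 and 89 in Input (adjusted p = 0.341). Of 35 tested tubulin, stathmin and motor genes none was called in edgeR (2 had an unadjusted p under 0.05, both lower, and DESeq2 called 2). Their median was 0.75, with 24 positive and 11 negative values. The most counted of these, the kinesin KIF5A, had a log2 fold change of 0.32 (SE 0.42).

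In the actin list 5 of 41 tested genes fell (12.2%, against 3.52% of all genes) and 1 rose (2.44%, against 1.46%), and with the replicate block 8 fell and 2 rose. ARPC4 and ARPC2 encode subunits of the same Arp2/3 complex and went opposite ways. ARPC2 had 1633, 1110 and 1111 counts in DCC-IP and 202, 234 and 193 in Input (log2 fold change 2.22, SE 0.53, adjusted p = 0.0491, and 0.0766 with MAP1B left out of the normalization). The other genes that fell were CNN3, CAPZA1, which caps filament ends, CTTN and ENAH, which extends filaments in growth cones and binds signalling complexes of DCC. The median of the list was 0.00, against 0.16 for all genes. Of the 5 that fell, 4 were over 100 CPM in Nrp1-IP, as were 7 of the 41 tested, a level at which 23.3% of all tested genes fell.

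Among 31 listed partners in DCC signalling 14 were tested and 2 fell (14.3%, against 3.52% of all genes). These 2 were the only tested members over 100 CPM in Nrp1-IP, a level at which 23.3% of all tested genes fell. CDC42, a small GTPase that drives filopodia, had 1658, 3522 and 5181 counts in DCC-IP and 27982, 29440 and 22981 in Input (log2 fold change -3.41, SE 0.42, adjusted p = 0.00585). ENAH had 4831, 9518 and 7699 counts against 21604, 21689 and 13938 (log2 fold change -1.81, SE 0.36, adjusted p = 0.0274). Of the axon guidance ligands and receptors 20 of 80 were tested and 1 fell (5.00%, against 3.52% of all genes): EFNA5, an ephrin ligand, had a log2 fold change of -1.89 (SE 0.37, adjusted p = 0.026). Its adjusted p was 0.0659 with MAP1B left out of the normalization. Among 20 tested mRNAs known to be translated in axons MAP1B rose (5.00%, against 1.46% of all genes), CDC42 fell (5.00%, against 3.52%), and the median was -0.21. With the replicate block 3 of the 20 rose and 3 fell. ENAH and CDC42 are well counted genes, over 100 CPM in Nrp1-IP.

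The receptor mRNAs themselves were little seen. DCC had 0 counts in all 6 libraries, which allows at most 3 counts a library, or 0.271 to 0.339 CPM, and covers counting error only. This limits the mRNA and says nothing about the DCC protein held by the antibody. NRP1 had 0, 26 and 23 counts in DCC-IP and 198, 320 and 234 in Input, and with an adjusted p of 0.098 it did not pass although the groups did not overlap. CTNNB1, which encodes beta-catenin, had 19637, 21165 and 10539 counts in DCC-IP and 5663, 6671 and 5412 in Input. Every DCC-IP library was above every Input library, with a log2 fold change of 1.14 (SE 0.38), an adjusted p of 0.119 and, with the replicate block, of 0.0427. HNRNPH1, a splicing regulator, had 70361, 68336 and 81747 counts against 101871, 122004 and 92438. Its log2 fold change was -0.94 (SE 0.23), with an adjusted p of 0.0558 and, with the replicate block, of 0.0128, and it was 0.25 with library sizes outside MAP1B. RPS14, a protein of the small ribosomal subunit, had 0, 20 and 5 counts against 1, 10 and 52, too few to show a difference at this depth.

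Of the cadherin and catenin list 13 of 39 genes were tested. Only TCF4 was called (CTNNB1 passed with the replicate block as well), and this symbol names a basic helix-loop-helix factor rather than the TCF factor that binds beta-catenin. The list's median was 1.14, and in 5 of the 13 genes all DCC-IP values lay above all Input values (17.1% of all genes).

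mRNAs of the translation machinery split by class. Of 53 tested cytosolic ribosomal protein genes 5 fell (9.43%, against 3.52% of all genes) and none rose in edgeR, where 1 had a higher value at an unadjusted p under 0.05. With the replicate block 7 fell and none rose. DESeq2 called 10 lower and none higher, against 524 and 508 of all 6223 genes. Their median was -1.69, which was 1.80 to 1.89 below that of all genes under the 5 scalings compared, and 41 of the 53 had a negative value. RPS20 had 1164, 1033 and 1008 counts in DCC-IP and 7365, 4857 and 4124 in Input (log2 fold change -2.76, SE 0.41, adjusted p = 0.00993). RPS25 had 141, 221 and 139 counts against 1600, 1160 and 853 (log2 fold change -3.27, SE 0.56). RPL15, RPL38 and RPS15A were the others. None of the 5 was called with MAP1B left out of the normalization. Ribosomal protein genes have many processed copies in the genome, which may have taken part of their reads. The 88 genes together had 6468 to 8528 counts in a DCC-IP library and 17293 to 23926 in an Input library, so they were a small part of both. Most of the list was sparse: 49 of the 53 tested were under 100 CPM in Nrp1-IP, where the median was 2.03 CPM. Sparse genes low in DCC-IP could pass the count filter through their Input counts, which favours negative values. The part of the filter in the median and the signs was not tested.

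Of 51 tested translation factor genes 5 fell (9.80%, against 3.52% of all genes) and 1 rose (1.96%, against 1.46%). Of the 5 that fell, 4 were over 100 CPM in Nrp1-IP, and with the replicate block 6 fell and 2 rose. EIF2S3 and EIF2S1, 2 subunits of the initiation factor eIF2, fell with EIF5A, EIF5AL1 and EIF4EBP2, an inhibitor of cap binding. EIF2S3 had 25596, 26310 and 22123 counts in DCC-IP and 180998, 140288 and 71212 in Input (log2 fold change -2.82, SE 0.38, adjusted p = 0.00753). EIF2B2, a subunit of the exchange factor that reloads eIF2, had 399, 567 and 439 counts against 42, 41 and 45 (log2 fold change 3.03, SE 0.67, adjusted p = 0.0399). The aminoacyl-tRNA synthetases, which charge tRNAs, lay on the other side: 13 of the 17 tested had a positive value and the median was 1.82. All 17 were under 100 CPM in Nrp1-IP, and the 22 listed genes together had 949 to 1564 counts in an Input library. Some may thus have passed the count filter through DCC-IP, which favours positive values. None was called in edgeR without the replicate block, while 3 had an unadjusted p under 0.05 and DESeq2 called 3, all higher. With the block 1 was called, the methionine enzyme MARS (adjusted p = 0.036). IARS, the isoleucine enzyme, had 2191, 1233 and 506 counts against 80, 241 and 159 (adjusted p = 0.0758).

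RNA-binding proteins showed both directions. AGO2, the slicer of small RNA silencing, had 3396, 1954 and 750 counts in DCC-IP and 44, 73 and 45 in Input (log2 fold change 4.87, SE 0.76, adjusted p = 0.0114), the only call among 35 tested genes of RNA granules. This was 2.86% of the list, against 1.46% of all genes. With the replicate block 2 of the 35 rose and 1 fell. Of 92 tested hnRNP, SR and splicing factor genes 4 rose (4.35%, against 1.46% of all genes) and 2 fell (2.17%, against 3.52%). With the replicate block 8 of them rose and 5 fell. SON, a large speckle protein, RBM6, RBM26 and RBM39 rose, with log2 fold changes of 2.95 (SE 0.55) for SON and 2.65 (SE 0.56) for RBM6. TRA2A and SRSF6, 2 regulators of exon inclusion, fell by 2.28 (SE 0.33) and 1.62 (SE 0.30). STAU1, which carries mRNAs along dendrites, had 1037, 818 and 584 counts against 129, 431 and 233 (adjusted p = 0.306), and HNRNPA2B1 had at most 67 counts in any library.

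Genes of the centrosome, kinetochore and chromosomes were among those that rose. In the mitosis and kinetochore list 5 of 79 tested genes rose (6.33%, against 1.46% of all genes) and 2 fell (2.53%, against 3.52%), and with the replicate block 8 rose and 3 fell. PCNT, KNTC1, CENPF, CEP350 and CDCA8 rose. CENPF, a large coiled-coil kinetochore protein, had 2565, 1005 and 2200 counts in DCC-IP and 3, 39 and 101 in Input (log2 fold change 4.92, SE 1.13, adjusted p = 0.0444). CEP350, a centrosomal protein, had 243, 289 and 157 counts against 0, 4 and 2. The adjusted p of CENPF, CEP350 and CDCA8 was over 0.05 with MAP1B left out of the normalization. SKA2 and BIRC5 fell. BIRC5 encodes survivin, which sits in one complex with the product of CDCA8, and the pair went opposite ways: BIRC5 had 11388, 13593 and 23442 counts against 52934, 64879 and 68709 (log2 fold change -2.39, SE 0.32), and CDCA8 1318, 1424 and 1019 against 184, 149 and 143 (log2 fold change 2.57, SE 0.53).

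Chromatin regulators had one of the higher medians, 1.27 over 83 tested genes, 1.05 to 1.15 above that of all genes under the 5 scalings. In 31 of the 83 all DCC-IP values lay above all Input values, against 17.1% of all genes. In edgeR without the replicate block 2 rose (2.41%) and 2 fell (2.41%), against 1.46% and 3.52% of all genes. With the block 8 rose and 2 fell, against 3.82% and 7.67% of all genes. DESeq2 called 15 higher and 1 lower, against 508 and 524 of all 6223 genes. Those that rose were INO80D and BAZ1B, subunits of nucleosome remodelling complexes, with log2 fold changes of 1.73 (SE 0.37) and 2.47 (SE 0.58). BRD3, which reads acetylated histones, fell by 1.51 (SE 0.32) and SMARCE1, of the BAF complex, by 2.26 (SE 0.48), and none of these calls was kept with MAP1B left out of the normalization. Of 43 tested nuclear pore and transport genes NUP153 and NUP188 rose (4.65%, against 1.46% of all genes). NUTF2, KPNA6 and NUP43 fell (6.98%, against 3.52%), and with the replicate block 6 rose and 3 fell. NUP153 had 2849, 1942 and 1773 counts against 168, 262 and 349 (log2 fold change 2.68, SE 0.54, adjusted p = 0.0289), and NUTF2, which imports Ran, 3919, 4061 and 4801 against 31481, 25788 and 16062 (log2 fold change -2.95, SE 0.35, adjusted p = 0.0052). Among 219 zinc finger ZNF genes 3 rose (1.37%, against 1.46% of all genes) and 1 fell (0.457%, against 3.52%), with a median of 0.58. With the replicate block 10 of them rose and 8 fell, against 3.82% and 7.67% of all genes. Of 63 tested genes in the list of other transcription factors ISL1, TCF4, MGA and LIN54 rose (6.35%, against 1.46% of all genes). NFIB, MEIS1 and KLF10 fell (4.76%, against 3.52%). With the block 4 rose and 6 fell there, and KLF10 was not among those called.

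mRNAs of the early secretory pathway held the largest share of lower calls among lists of at least 10 tested genes in the fit without the replicate block. Of 36 tested ER targeting and translocation genes 8 fell (22.2%, against 3.52% of all genes) and none rose in edgeR (3 had a higher value at an unadjusted p under 0.05, and DESeq2 called 2 higher). With the block 9 fell and 2 rose. SRPRB, the beta subunit of the signal recognition particle receptor, had 2235, 3113 and 5965 counts in DCC-IP and 26487, 28333 and 34401 in Input (log2 fold change -3.44, SE 0.40, adjusted p = 0.00513). SEC22B, a SNARE of ER to Golgi vesicles, had 1350, 3227 and 3254 counts against 17711, 16792 and 10825 (log2 fold change -2.98, SE 0.43). SSR1 and SSR3, of the translocon-associated complex, SPCS3, of the signal peptidase, STT3A, an oligosaccharyltransferase, SAR1A, the GTPase of COPII coats, and TMED4, a cargo receptor, fell by 1.93 to 2.79. SRPRB, SEC22B and STT3A kept an adjusted p under 0.05 with MAP1B left out of the normalization.

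All 8 of these genes were over 100 CPM in Nrp1-IP, as were 12 of the 36 tested, while of all 744 tested genes over that level 173 fell (23.3%) and of the 5479 below it 46 fell (0.840%). The median of the 36 was -0.13, close to that of all genes, so the fall did not extend over the list. The part of the expression level in these calls was not tested.

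Among small GTPases and solute carriers the genes called without the replicate block were all lower. Of 39 tested small GTPases 5 fell (12.8%, against 3.52% of all genes): CDC42, ARF6, RAB2B, RAB33B and RAP2C, with ARF6, which moves endosomes and membrane, at -2.81 (SE 0.41). All 5 were over 100 CPM in Nrp1-IP, as were 11 of the 39 tested. None rose in edgeR at an adjusted or an unadjusted p under 0.05, nor in DESeq2, and with the block 9 fell and none rose. Their median was -0.99, and 1.11 to 1.23 below that of all genes under the 5 scalings. Of 111 tested solute carriers 9 fell (8.11%, against 3.52% of all genes), 7 of them over 100 CPM in Nrp1-IP. None rose in edgeR without the block (11 had a higher value at an unadjusted p under 0.05). DESeq2 called 11 higher and 20 lower, against 508 and 524 of all 6223 genes. With the block 20 fell and 2 rose, against 7.67% and 3.82% of all genes. Their median was -0.72, with 71 negative and 40 positive values. Among the 9, SLC35F1 had no count in any DCC-IP library, so that Input was at least 49.0-fold higher when DCC-IP is set to the floor of 3 counts per library. Of 27 proteasome genes PSMD12, PSMG3 and PSMB4 fell (11.1%, against 3.52% of all genes), while 15 had a positive and 12 a negative value. With the block 4 of the 27 fell and none rose. Of 54 chaperone genes BAG4, DNAJC3 and HSPB9 fell (5.56%, against 3.52% of all genes). Of the 54, 30 had a positive and 24 a negative value, and with the block 7 fell and 2 rose. In the list of ubiquitin enzymes USP4, USP13 and USP34 rose (5.77%, against 1.46% of all genes), of 52 tested. UBE2D4 and USP22 fell (3.85%, against 3.52%), and with the block 5 rose and 3 fell. USP4, a deubiquitinase, had 5797, 3102 and 1654 counts against 167, 212 and 100 (log2 fold change 4.10, SE 0.67, adjusted p = 0.0131).

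Of 16 tested mTORC1 and lysosome genes 2 rose (12.5%, against 1.46% of all genes) and 1 fell (6.25%, against 3.52%). This was the largest share called higher among lists of at least 10 tested genes, in a list whose median of 0.15 was close to that of all genes. FNIP1, a partner of folliculin, had 31033, 45795 and 43397 counts in DCC-IP and 12119, 10756 and 6511 in Input (adjusted p = 0.0322). DEPDC5, a brake on mTORC1, rose by a log2 fold change of 2.67 (SE 0.60), and EIF4EBP2 fell by 2.23 (SE 0.36). In glycolysis PFKM, the muscle-type phosphofructokinase, rose by 3.14 (SE 0.73) and GPI fell by 1.97 (SE 0.33), of 15 tested (6.67% each, against 1.46% and 3.52% of all genes). With the replicate block 1 of the 15 rose and 2 fell. SLC38A2, an amino acid transporter, had 5432, 1634 and 98533 counts in DCC-IP and 334, 204 and 1297 in Input. It was far higher in the libraries numbered 3 of both groups, and its adjusted p was 0.0769, or 0.00539 with the replicate block. AKAP12, a kinase anchor, had 13678, 14383 and 25841 counts against 5262, 5063 and 5998 (log2 fold change 1.28, SE 0.34), with an adjusted p of 0.0652 and, with the block, of 0.00974.

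Mitochondrially encoded RNAs were nearly absent from DCC-IP replicates 1 and 2 and sparse in every library. All 37 listed genes together had 3, 16 and 1278 counts in DCC-IP and 493, 7162 and 7809 in Input. These were 2.72e-05%, 0.000145% and 0.0123% of the gene counts in DCC-IP and 0.00462%, 0.0712% and 0.0884% in Input. In Nrp1-IP they were 8.24e-05%, 0.000736% and 0.00436%, all below the lowest Input library. With 3 and 16 counts in DCC-IP replicates 1 and 2, these genes could pass the count filter only with the help of their Input counts. The filter thus favoured negative values. All 13 tested genes had negative values, with a median of -4.13. MT-CO3, a subunit of cytochrome oxidase, was the 1 called, with 0, 0 and 9 counts against 72, 296 and 815 (adjusted p = 0.0488, and 0.0602 with MAP1B left out of the normalization). With the replicate block 3 were called, all lower. The groups as a whole overlapped in this sum, since DCC-IP replicate 3 exceeded Input replicate 1. Of 44 tested nuclear genes of the respiratory chain 2 fell (4.55%, against 3.52% of all genes), or 4 with the block. They were COX7B, another oxidase subunit, by 3.71 (SE 0.54) and NDUFV3, of complex I, by 2.41 (SE 0.42) without it. Of 33 mitochondrial ribosomal protein genes 1, MRPS17, fell (3.03%), and with the block 2 fell and 1 rose.

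**Figure D5:**
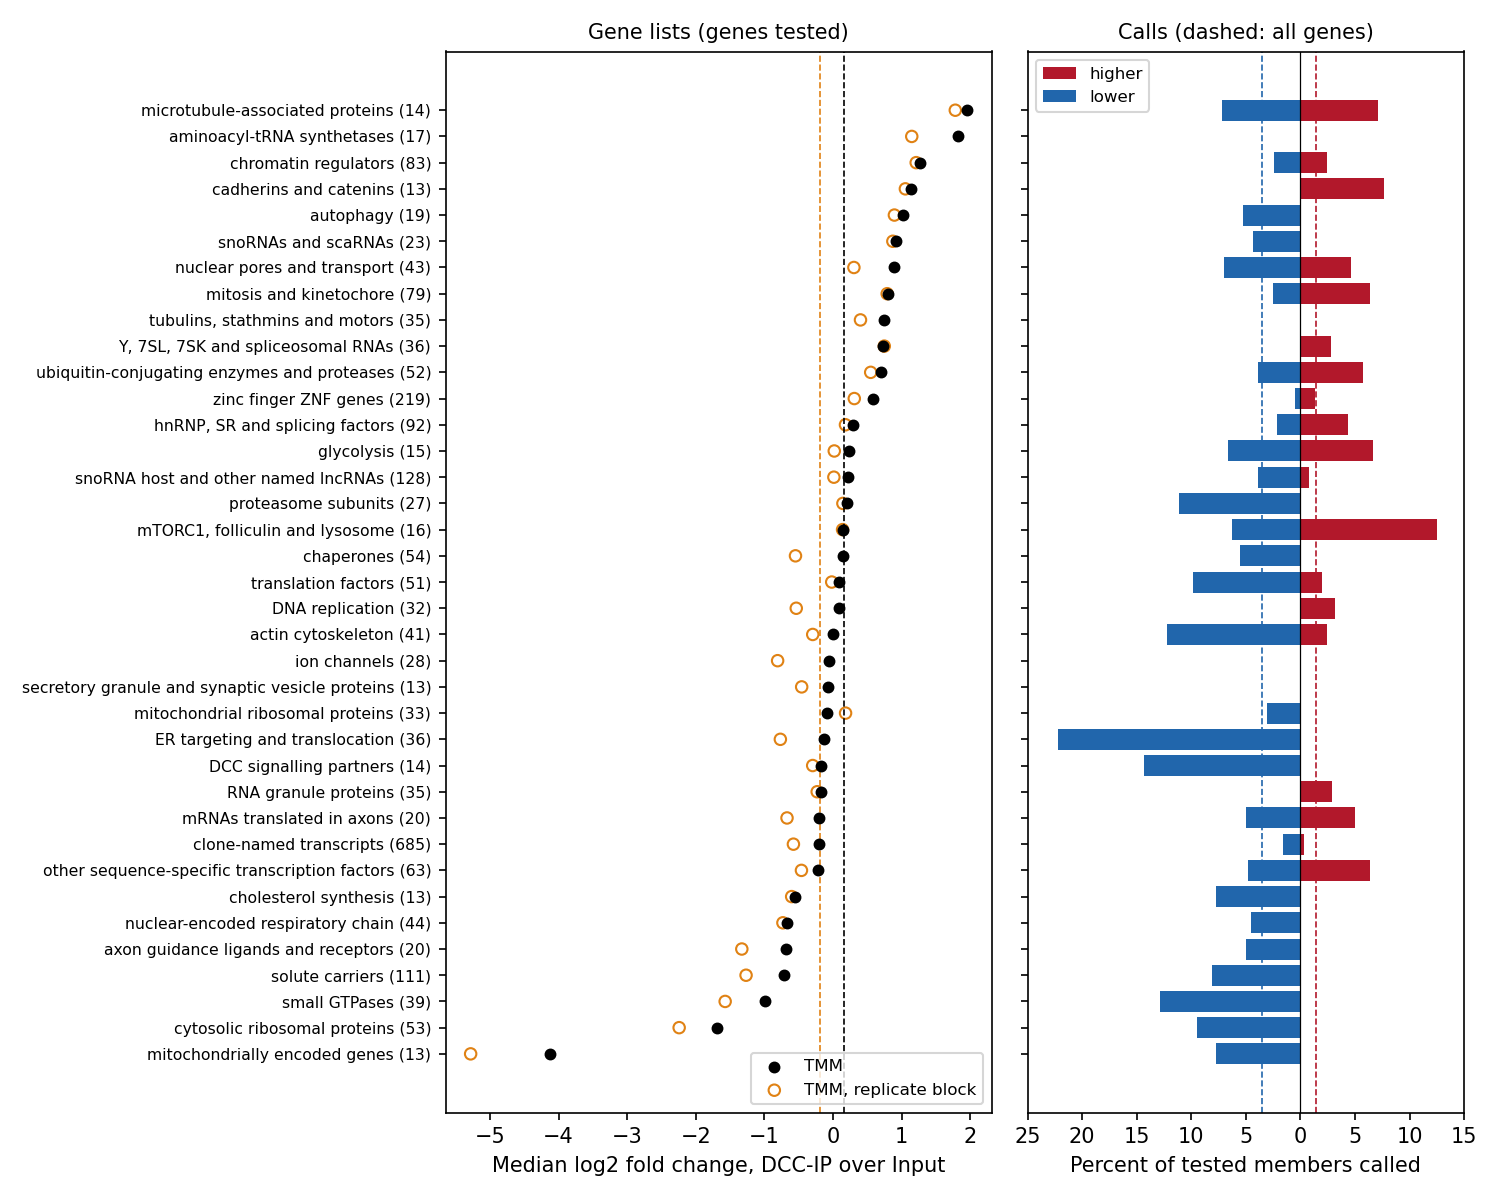
Left, median log2 fold change of DCC-IP over Input for each list with at least 10 tested genes, without (filled) and with (open) the replicate block, with dashed lines at the medians of all genes. Right, percent of tested members called higher and lower, with dashed lines at 1.46% and 3.52%. The mitochondrially encoded genes, for which the count filter favoured negative values, lie lowest at -4.13. Microtubule-associated proteins lie highest at 1.95, and the ER targeting list has the longest bar of lower calls at 22.2%.

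By gene type, 5229 of the tested genes were protein coding, of which 84 rose (1.61%) and 198 fell (3.79%), and 127 were long non-coding RNAs, of which 2 rose and 4 fell. Among 128 tested genes of the named non-coding list 1 rose and 5 fell, or 5 and 6 with the replicate block. MIAT, a nuclear RNA of neurons, had 9142, 3513 and 3160 counts in DCC-IP and 674, 463 and 521 in Input (log2 fold change 2.88, SE 0.58, adjusted p = 0.0287). ZBED5-AS1 and C17orf76-AS1 fell by 3.47 (SE 0.42) and 4.10 (SE 0.52). The strand setting of the counting is not given in the sources used here, so reads of an antisense gene and its partner cannot be told apart. Of 685 tested transcripts with clone names 2 rose (0.292%, against 1.46% of all genes) and 11 fell (1.61%, against 3.52%), or 12 and 44 with the block. The small nucleolar list had 1 call, snoU109, lower (1 more rose with the block), and the 7SL and related list 1, RN7SL56P, higher. Both have copies elsewhere in the genome and are uncertain.

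Markers of the cell line were sparse. Of 15 listed noradrenergic neuroblastoma genes 7 had more than 3 counts in every Input library (among them ISL1, GATA3, GAP43, ELAVL4, CHGA and CHGB), and TH, which makes the precursor of dopamine, had 0 counts in all 6 libraries. The list summed to 36418, 29083 and 18897 counts in DCC-IP and 2478, 4380 and 2526 in Input, and most of each DCC-IP sum was ISL1, the only member called. The list as a whole did not rise: of the 7 tested members 3 had a positive and 4 a negative value. Their median was -0.90, against 0.16 for all genes. CHGB, a secretory granule protein, had 956, 930 and 954 counts against 88, 395 and 216 (adjusted p = 0.188). For the level of a marker in Input, a bulk lysate, fewer cells of a type and less RNA per cell cannot be told apart. Of 18 markers of other cell types 13 were at 0 in all 6 libraries, among them PTPRC, EPCAM and GFAP, and the list summed to 37 to 111 counts in DCC-IP and 3 to 938 in Input, where Input replicate 2 owed 912 counts to VIM.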

How the data were processed

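The authors deposited raw read counts, 1 per gene symbol and library, made with HISAT2 2.1.0 and HTSeq 0.11.0 on hg19 according to the submitters' processing notes. The annotation and strand setting are not given in the sources used here. The 5 HTSeq summary lines were left out of library sizes and tests. They held 69.0% to 70.8% of reads.

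DCC-IP was compared with Input in edgeR 4.0.16 (R 4.3.3) on 6 libraries with filterByExpr (minimum count 10), TMM, glmQLFit and glmQLFTest. Calls needed a p under 0.05 after Benjamini-Hochberg adjustment. The SE is the log2 fold change divided by the square root of F. DESeq2 1.42.0 was an alternative. The scripts were tested on simulated data. The replicate number was taken from the titles. The deviations from group means of same-numbered DCC-IP and Input libraries correlated at 0.124, 0.242 and 0.494 over 6223 genes (log2 CPM with 0.5 added), so the numbers were taken to pair the libraries. Pairs with different numbers ran from -0.370 to 0.173. The value of 0.173, for DCC-IP replicate 2 with Input replicate 1, was above that of the pair numbered 1. Deviations cancel within a group, so these correlations are not independent of each other.

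The members and the 47 gene lists were chosen with earlier results of these data known, so counts over a list are descriptions. The text names the 10 leading genes by p for each direction, the 10 with the most counts in each group, up to 2 called genes a list and direction (otherwise the most abundant tested member), and DCC, NRP1, CTNNB1, HNRNPH1, RPS14, HNRNPA2B1 and STAU1. Other genes were named after their values were seen. RefSeq names (GRCh38.p14) matched 5481 of 6223 tested genes and gave gene types. Protein lengths were not analysed here. Some genes chosen by the rule are not reported here. Intervals and floors cover counting error only, since reads were PCR-amplified without molecular identifiers.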

Additional observations from a re-analysis of the deposited data

Results flagged for a closer look

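Reads outside annotated genes, which no comparison above uses, took a larger part of the DCC-IP libraries. Reads assigned to no gene were 54.6%, 55.8% and 55.2% of all reads in DCC-IP (mean 55.2%) and 52.5%, 54.2% and 48.7% in Input, and the groups did not overlap. The exact two-sided permutation p for reads assigned to no gene was 0.1, the smallest that 3 against 3 libraries can give. In Nrp1-IP the share assigned to no gene was 53.8% to 54.6%.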

How the results depend on the processing

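The counts of calls moved with nearly every setting, and the cause was not tested. Genes called higher in DCC-IP, 91 as reported, numbered 25 with MAP1B left out of the normalization, 44 under RLE size factors, 141 with library size alone, 233 without a filter, 468 with at least 10 counts in every library, 508 in DESeq2, 294 in the likelihood ratio test, 285 with all 9 libraries in one fit, 238 with the replicate block and 604 with library sizes outside MAP1B. Genes called lower, 219 as reported, numbered 41, 169, 167, 216, 337, 524, 351, 495, 477 and 70 in the same order. Leaving out 1 library gave 0 to 139 higher and 0 to 214 lower: 0 and 0 without DCC-IP replicate 1 (edgeR, 1554 genes at an unadjusted p under 0.05), 1 and 0 without DCC-IP replicate 2 (1338), 139 and 67 without DCC-IP replicate 3, 1 and 30 without Input replicate 1, 14 and 82 without Input replicate 2, and 36 and 214 without Input replicate 3. The log2 fold change of MAP1B stayed between 4.04 and 4.82 when 1 library was left out, and its adjusted p passed 0.05 only without DCC-IP replicate 1 (4.07). Its mean share of a DCC-IP library was 14.4% of all reads. Of the 86 named genes called, 39 were called with MAP1B left out of the normalization and all 86 with the replicate block. The block changed the call of no reported gene except those given with it and H2AFV and CHRNA5, which passed only with it. Among the named genes signs turned only for NFIB and for genes that were not called. With library sizes outside MAP1B the log2 fold changes were 0.085 for NFIB, 0.25 for HNRNPH1, 0.48 for SOX4, 0.62 for MARCH6, 0.84 for SOX11, 0.22 for CHRNA5, 1.01 for MIR589 and 0.75 for HNRNPA2B1. MIR589 was 0.019 with MAP1B left out, 0.073 with library size alone and 0.079 with at least 10 counts in every library, and HNRNPA2B1 0.018 with library size alone. Without 1 library the range was -0.82 to 0.085 for MARCH6, -0.45 to 0.022 for SOX11, -0.37 to 0.25 for MIR589, -3.53 to 0.14 for RPS14 and -4.16 to 1.07 for HNRNPA2B1. With 1 library of a group left out, both groups share 1 estimate of spread. Depth limits statements on genes with few counts in DCC-IP replicate 1, which held the fewest genes.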
